A study of Mus musculus with 17 samples.

Results

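The genes described here encode the proteins of the cytosolic ribosome. They were chosen by name alone, as the probe sets whose only gene symbol in the platform annotation was a small subunit (Rps) or large subunit (Rpl, Rplp) protein, without pseudogenes and without the ribosomal S6 kinases. This gave 102 probe sets and 63 genes out of 22180 measured genes, 23 of the small and 40 of the large subunit. Probe sets of a gene were averaged, which affected 23 of the 63 genes. A further 57 probe sets name a ribosomal protein gene together with other genes and were kept apart, and 12 ribosomal protein genes (among them Rpl10, Rpl13a, Rpl23, Rpl24 and Rps2) were named only on such shared probe sets. Rps27a had no probe set of its own.

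Eosinophils from CC10-IL13 transgenic mice were measured on 17 Affymetrix arrays. In these mice the promoter of CC10, a gene of airway secretory cells, drives interleukin-13 when the animals eat doxycycline (Dox), and all 6 groups carry this transgene. The groups were knockout (Pirb-/-) and wildtype (Pirb+/+) esophagus after Dox with 3 arrays each, knockout and wildtype marrow after Dox with 3 arrays each, and knockout and wildtype marrow without Dox with 3 and 2 arrays. Pirb encodes an inhibitory receptor of myeloid cells. The mice were males and females of 6 to 8 weeks, the wildtype mice were littermates, and Dox was given for 2 weeks. No esophagus without Dox was measured. The labels do not say whether an array holds 1 animal or a pool, and a p-value here speaks only of the spread between arrays, which may be technical.

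A ribosome carries 1 copy of nearly every ribosomal protein, and cells make these proteins in matched amounts. Many of their mRNAs start with a C followed by a run of pyrimidines, the 5' terminal oligopyrimidine (TOP) tract, which lets the kinase mTOR and the binding protein Larp1 set how much of the mRNA is stored or translated. Ribosome production is high in dividing marrow precursors and falls as granulocytes mature, while eosinophils that enter a tissue are no longer dividing.

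Promoters of 48 of the 63 genes were found in the RefSeq promoter table (GRCm38.p6). At the annotated start, 11 of these 48 (22.9%) began with a C followed by at least 4 more pyrimidines, against 2.49% of 27018 promoters in the table. A run of at least 8 pyrimidines within 15 bases of the start was present in 21 (43.8%) of the 48, against 11.9% of all promoters. The motif CCGGAAG or its complement CTTCCGG, the core that ETS family factors bind, was sought on either strand in the 250 bases before the start. It was found in 31.2% of the ribosomal protein promoters and in 7.05% of all. Over the same 250 bases the TATA box letters TATAAA or their complement were in 4.17%, against 13% of all promoters. The 30 bases around the start (15 before it and 15 from it onward) are shown for genes that recur in the results below, with the longest pyrimidine run in capitals and the coding strand written 5' to 3'. The opening 5 have a TOP-like start and the closing 5 do not.
Rpl14, chr9:120571502-120571531, plus strand: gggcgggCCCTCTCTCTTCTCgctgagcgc
Rpl15, chr14:18270972-18271001, minus strand: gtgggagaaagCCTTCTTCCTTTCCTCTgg
Rpl38, chr11:114668565-114668594, plus strand: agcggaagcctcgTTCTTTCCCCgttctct
Rps6, chr4:86857353-86857382, minus strand: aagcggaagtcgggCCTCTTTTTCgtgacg
Rps27, chr3:90213634-90213663, minus strand: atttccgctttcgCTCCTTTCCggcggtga
Rps3, chr7:99483695-99483724, minus strand: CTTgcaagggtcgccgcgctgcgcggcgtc
Rps4x, chrX:102189377-102189406, minus strand: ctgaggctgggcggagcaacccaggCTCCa
Rps28, chr17:33824548-33824577, minus strand: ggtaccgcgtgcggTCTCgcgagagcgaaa
Rpl39l, chr16:10170213-10170242, plus strand: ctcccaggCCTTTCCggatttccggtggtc
Rpl3l, chr17:24727811-24727840, plus strand: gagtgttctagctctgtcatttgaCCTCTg
The annotated start is 1 position per gene and may differ from the start used in eosinophils, so a window without a run says only that these letters are not there.

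Every value below is a log2 distance from the middle array of its probe set, because the authors centred each probe set before deposit. A value near 0 is therefore the level of the middle array, levels of different genes cannot be compared, and whether a gene is bright or dim is not known. One array stood apart from its group. Replicate 3 of knockout marrow without Dox had an SD across genes of 0.802. Esophageal arrays had SDs of 0.511 to 0.611, and the remaining marrow arrays had SDs of 0.231 to 0.284. Its correlation with the other 2 arrays of its group was -0.0337 to -0.0200 across genes. Among the ribosomal protein genes it held 16 values below -1 (25.4% of the 63, against 9.50% of all its genes), with Rpl28 at -4.72, Rpl13 at -3.76, Rps26 at -3.67, Rpl14 at -3.59, Rpl32 at -3.26 and Rpl15 at -2.97. The other 2 arrays of that group had no value below -1. All groups share 1 estimate of the spread, so this array widens the errors of every comparison, and the counts are also given without it. The median SD within groups over the 63 genes was 0.28 with it and 0.20 without it, against 0.19 and 0.15 over all genes.

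Marrow and esophageal arrays differed in the middle of the family as well as in single genes. The median of the 63 values was -0.30, -0.14 and -0.21 in knockout esophageal eosinophils, against 0.12, 0.18 and 0.14 in knockout marrow with Dox. It was -0.27, -0.05 and -0.23 in wildtype esophageal eosinophils, against 0.10, 0.08 and 0.08 in wildtype marrow with Dox. In both genotypes every esophageal array thus had a lower family median than every marrow array with Dox. Marrow without Dox had 0.01, 0.12 and -0.15 in knockout and 0.02 and -0.03 in wildtype, and the -0.15 is the outlying array. Medians of all genes in the 6 esophageal arrays ran the other way or near 0, between -0.01 and 0.13.

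**Figure D1:**
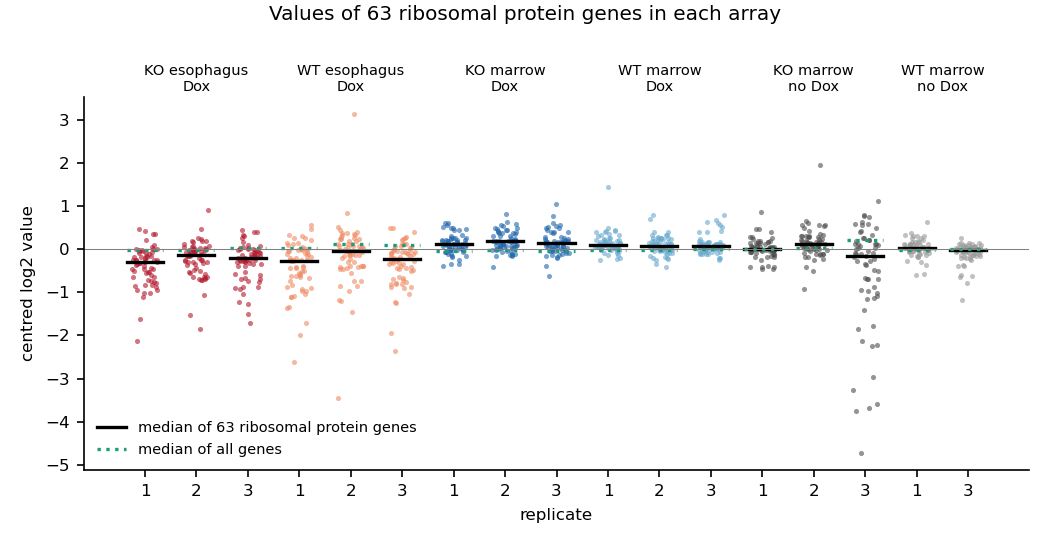
Centred log2 values of the 63 ribosomal protein genes (points) in each of 17 arrays, with replicates along the horizontal axis grouped by genotype (KO, knockout; WT, wildtype), tissue and Dox. The solid bar is the median of the 63 genes and the dotted bar the median of all genes: the family median is below 0 in all 6 esophageal arrays and lies between 0.08 and 0.18 in the 6 marrow arrays with Dox, and replicate 3 of knockout marrow without Dox has the lowest values of the plot.

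The comparison of tissues asks how eosinophils in the interleukin-13-exposed esophagus differ from those in marrow of mice on the same food. Most ribosomal protein genes were on the lower side in the esophagus. In knockout mice 54 of 63 differences were below 0, with a median of -0.42 against 0.06 over all genes. In wildtype mice 51 of 63 were below 0, with a median of -0.39 against 0.14 over all genes. The family median stayed between -0.49 and -0.37 when arrays were centred on their median or quantile normalised. The tissues share no array between genotypes, and across the 63 genes the knockout and wildtype differences had a Pearson r of 0.85 and a Spearman rho of 0.84. Over all genes the r was 0.84. Of the 63 genes, 49 (77.8%) were below 0 in both genotypes, against 24.0% of all genes. In bulk RNA of sorted cells, less RNA per cell and fewer cells of a type that makes the RNA cannot be told apart.

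By limma with Benjamini-Hochberg adjustment over all 22180 genes and a threshold of 0.05, 9 ribosomal protein genes fell and 2 rose in knockout esophageal eosinophils. Over all genes 10.5% passed, 6.04% lower and 4.50% higher. In wildtype esophageal eosinophils 10 fell and 2 rose, where 15.2% of all genes passed, 7.06% lower and 8.11% higher. The shares of the 63 genes that fell were 14.3% in knockout and 15.9% in wildtype. With quantile normalisation the knockout counts were 24 lower and 1 higher, against 7.82% of all genes lower and 5.24% higher. Without the outlying array 25 fell and 4 rose in knockout (9.07% and 9.75% of all genes) and 26 fell and 5 rose in wildtype (11.4% and 25.1% of all genes). Of those lower ones 21 were the same in both genotypes, which is 84.0% of the knockout and 80.8% of the wildtype calls. Leaving out replicate 1 of wildtype marrow with Dox cut the wildtype count to 2 lower genes (3.17% of the 63). Of all 22180 genes, 799 were then lower and 536 higher. Leaving out replicate 3 of that group gave 7, of which 6 were lower (9.52% of the 63), beside 1134 lower and 854 higher of all genes. In knockout, the count was 5 without esophageal replicate 1, 7 without esophageal replicate 3, and 6, 6 and 7 without marrow replicates 1, 2 and 3. The shares of all genes in these knockout fits are not given here.

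**Figure D2:**
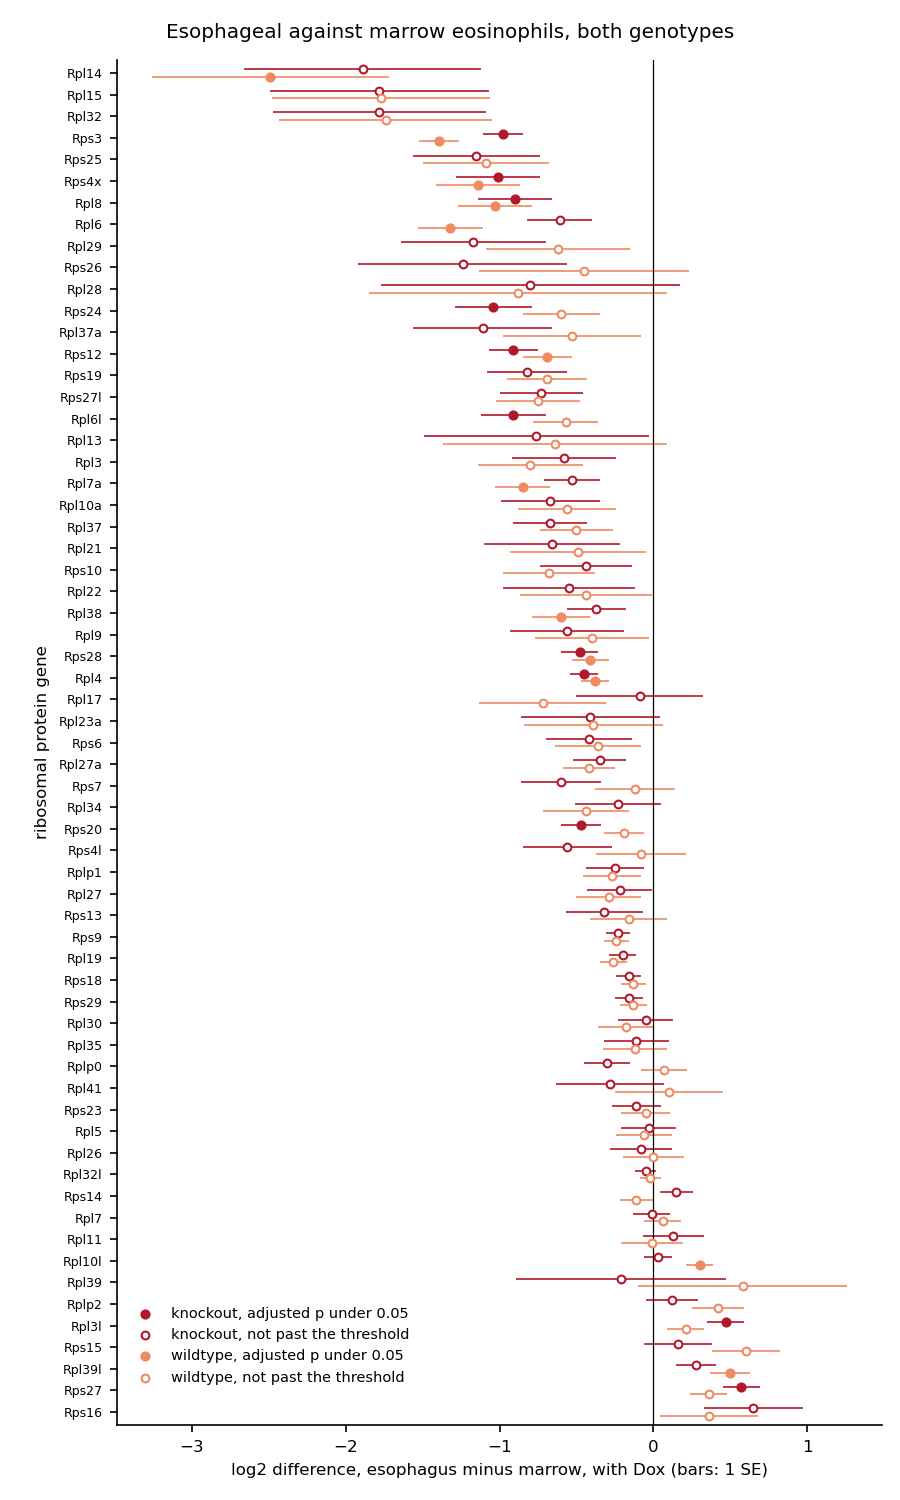
Difference in log2 value between esophageal and marrow eosinophils with Dox for each of the 63 ribosomal protein genes (rows, ordered by the mean of both differences), in knockout and wildtype mice. Points are fitted differences from 17 arrays, bars are 1 SE, and filled points passed an adjusted p of 0.05. Most points lie left of 0, the longest bars belong to genes that were far down in 1 outlying marrow array, and Rps3 has the largest called fall in wildtype among genes with short bars.

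Rps3, a small subunit protein at the entry of the mRNA channel that also acts in DNA repair and with NF-kB, had the clearest fall. Its values were -0.64, -0.70 and -0.87 in knockout esophagus, against 0.25, 0.20 and 0.29 in knockout marrow with Dox. They were -1.09, -1.18 and -1.23 in wildtype esophagus, against 0.42, 0.11 and 0.13 in wildtype marrow with Dox. The tissues did not overlap in either genotype. The fall was -0.98 ± 0.13 (SE, n = 3 and 3, limma adjusted p = 0.000281), or 1.97-fold, in knockout and -1.39 ± 0.13 (n = 3 and 3, limma adjusted p = 2.33e-05), or 2.61-fold, in wildtype. It passed in all 17 fits that left out 1 array in each genotype.

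Rps4x, the X-linked small subunit protein S4, had -1.01, -0.71 and -0.88 in knockout esophagus, against 0.11, 0.13 and 0.21 in knockout marrow. In wildtype it had -1.03, -1.46 and -0.72 in the esophagus, against 0.16, 0.08 and -0.02 in marrow. The differences were -1.01 ± 0.27 (limma adjusted p = 0.0281) in knockout and -1.14 ± 0.27 (limma adjusted p = 0.0153) in wildtype. Rpl8, the large subunit protein next to the peptidyl transferase centre, had -0.78, -0.64 and -0.68 in knockout esophagus, against 0.21, 0.22 and 0.18 in marrow. In wildtype it had -0.74, -0.73 and -0.78 in the esophagus, against 0.45, 0.32 and 0.08 in marrow. The fall of Rpl8 was -0.90 ± 0.24 in knockout (limma adjusted p = 0.0293) and -1.03 ± 0.24 in wildtype (limma adjusted p = 0.0149). For both genes the arrays of the tissues were wholly apart in both genotypes.

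Rps12, measured by 8 probe sets of which several are near-identical, fell by 0.91 ± 0.16 in knockout (limma adjusted p = 0.00256) and by 0.69 ± 0.16 in wildtype (limma adjusted p = 0.0146). Its values were -0.75, -0.64 and -0.75 in knockout esophagus, against 0.19, 0.20 and 0.17 in marrow, and -0.63, -0.38 and -0.64 in wildtype esophagus, against 0.15, 0.13 and 0.14 in marrow. Rpl4, which lines the exit tunnel for the growing chain, fell by 0.45 ± 0.09 in knockout and by 0.38 ± 0.09 in wildtype (limma adjusted p = 0.00406 and 0.0138). Rps28, near the mRNA exit and mutated in some patients with Diamond-Blackfan anaemia, fell by 0.48 ± 0.12 in knockout and by 0.41 ± 0.12 in wildtype (limma adjusted p = 0.0226 and 0.0399). These 6 genes were the ones called in both genotypes, 54.5% of the knockout and 50% of the wildtype calls. Not all were as stable as Rps3 when 1 array was left out. Of 17 such fits, Rps28 passed in 14 in knockout and 8 in wildtype. Rpl8 passed in 11 and 16, Rps4x in 11 and 15, Rps12 in 17 and 16, and Rpl4 in 17 and 15.

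Other members passed in 1 genotype, and none of these genotype differences in the tissue effect passed its own test. Knockout eosinophils had lower Rps24 (-1.04 ± 0.25), Rpl6l (-0.91 ± 0.21) and Rps20 (-0.47 ± 0.13) in the esophagus, with limma adjusted p of 0.0160, 0.0129 and 0.0361. Wildtype differences for these genes were -0.60, -0.57 and -0.19. Wildtype eosinophils had lower Rpl6 (-1.32 ± 0.21), Rpl7a (-0.85 ± 0.18), Rpl38 (-0.60 ± 0.19) and Rpl14 (-2.49 ± 0.77), with limma adjusted p of 0.00176, 0.00991, 0.0450 and 0.0468. Knockout differences for these genes were -0.61, -0.53, -0.37 and -1.89. Rpl38, a large subunit protein known in mouse embryos for selective translation of Hox mRNAs, passed in 4 of the 17 wildtype fits that left out 1 array, as did Rpl14.

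The members with the largest differences were not those with the smallest p. Rpl14 had -1.61, -1.85 and -1.04 in knockout esophagus, against 0.32, 0.45 and 0.38 in marrow. In wildtype it had -1.70, -3.44 and -1.94 in the esophagus, against 0.18, 0.25 and -0.03 in marrow. Rpl15, a large subunit protein in which Diamond-Blackfan mutations are known, differed by -1.78 ± 0.71 in knockout and by -1.77 ± 0.71 in wildtype (limma adjusted p = 0.146 and 0.0985). Rpl32 differed by -1.78 ± 0.69 in knockout and by -1.74 ± 0.69 in wildtype (limma adjusted p = 0.137 and 0.0972). Both genes had arrays wholly apart between tissues, and both were among the lowest in the outlying marrow array. Without that array the adjusted p-values were 0.00463 and 0.00378 for Rpl15 and 0.00180 and 0.00182 for Rpl32, in knockout and wildtype. Rps6, the substrate of S6 kinase, differed by -0.42 ± 0.28 in knockout and by -0.36 ± 0.28 in wildtype, with adjusted p of 0.418 and 0.347, and of 0.00103 and 0.00245 without that array (limma). Rps19, the gene most often mutated in Diamond-Blackfan anaemia, differed by -0.82 ± 0.26 and -0.69 ± 0.26 (adjusted p = 0.0674 and 0.0867, and 0.00114 and 0.00301 without that array).

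The arrays of the tissues did not overlap, with the esophagus lower, for 37 genes in knockout and 29 in wildtype, against 16.0% and 13.1% of all genes. They did not overlap, with the esophagus higher, for 4 genes in knockout and 6 in wildtype, against 28.0% and 33.0% of all genes. The remaining 22 genes in knockout and 28 in wildtype overlapped.

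**Figure D3:**
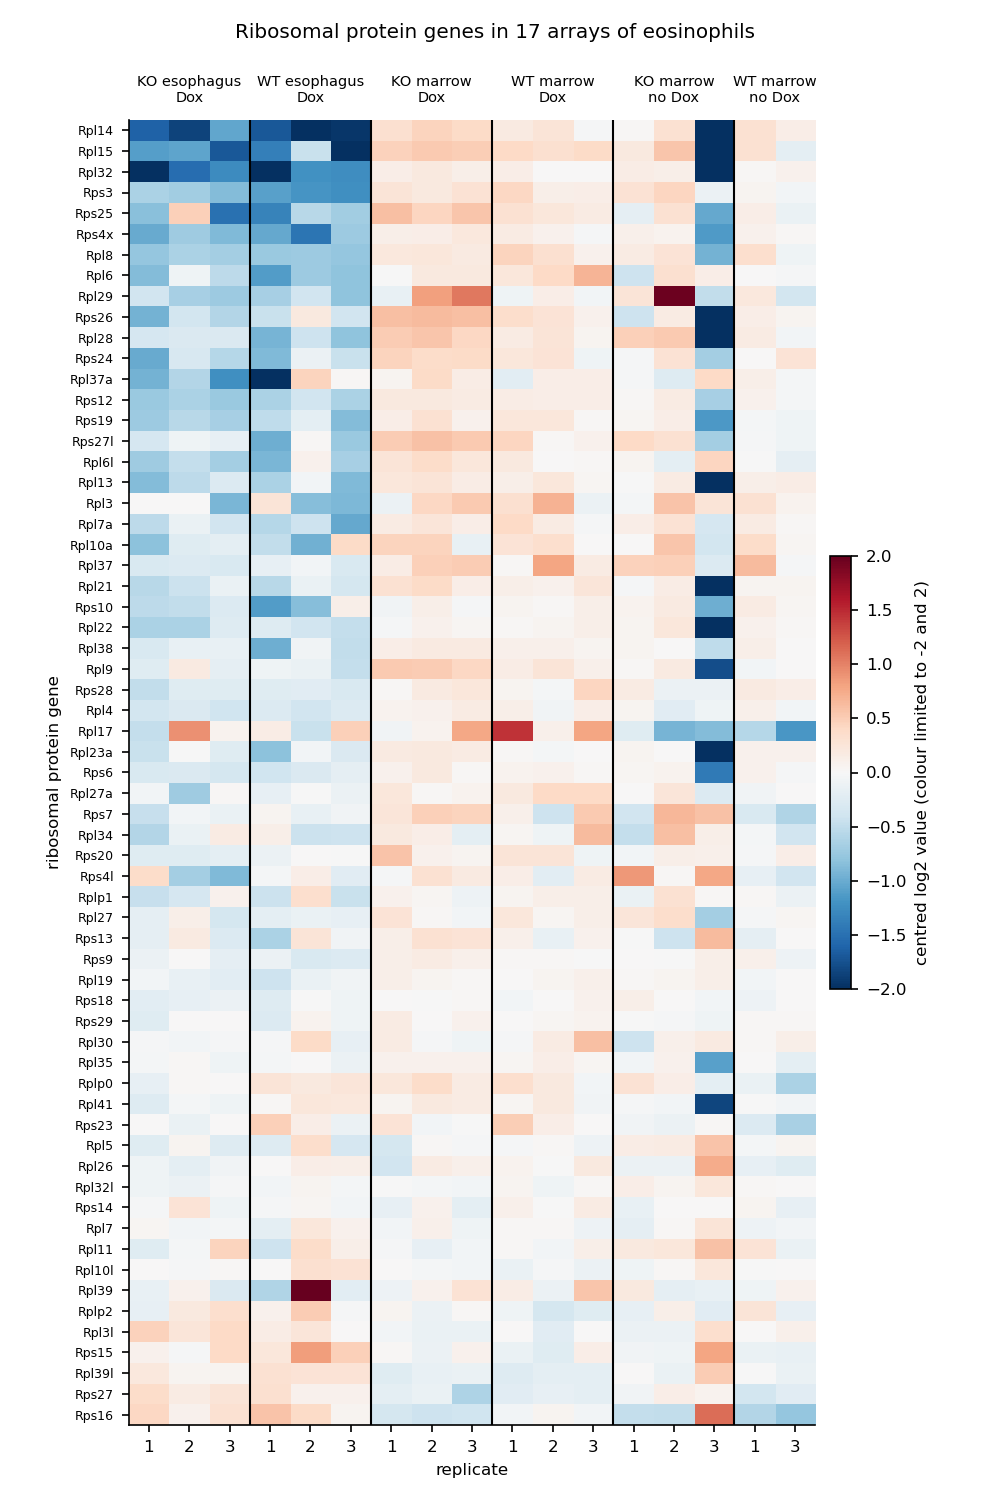
Centred log2 values of the 63 ribosomal protein genes (rows, ordered by the mean esophagus minus marrow difference) in 17 arrays (columns, by replicate within group), with blue below and red above the middle array and colours limited to -2 and 2. The upper rows are blue in the 6 esophageal arrays and in replicate 3 of knockout marrow without Dox, whose lowest value is -4.72 for Rpl28, while Rps16, Rps27, Rpl39l and Rps15 at the bottom lie on the red side in most esophageal arrays.

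A small set of genes was higher in the esophagus. Rps27, a zinc finger protein of the small subunit, had 0.36, 0.16 and 0.26 in knockout esophagus, against -0.19, -0.13 and -0.61 in marrow. In wildtype it had 0.32, 0.08 and 0.08 in the esophagus, against -0.23, -0.17 and -0.20 in marrow. It rose by 0.57 ± 0.12 in knockout (limma adjusted p = 0.00747) and differed by 0.36 ± 0.12 in wildtype (adjusted p = 0.0573). Rps27l, its p53-inducible paralog, went the other way, by -0.73 ± 0.27 in knockout and -0.75 ± 0.27 in wildtype (limma adjusted p = 0.119 and 0.0763).

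Paralogs known from muscle and testis were among the genes above 0, but not all diverged paralogs were. Rps27l, above, and Rps4l, at -0.56 in knockout and -0.08 in wildtype with no call, were below it. So were Rpl6l and Rpl32l, whose symbols also end in l. Rpl6l was at -0.91 in knockout, called as given above, and at -0.57 in wildtype. Rpl32l was at -0.05 and -0.02, with no call. Rpl3l, which replaces Rpl3 in striated muscle, had 0.46, 0.24 and 0.40 in knockout esophagus, against -0.06, -0.13 and -0.13 in marrow, and rose by 0.47 ± 0.12 (limma adjusted p = 0.0227). In wildtype it differed by 0.21 ± 0.12 (adjusted p = 0.206). Rpl3 itself differed by -0.58 ± 0.34 in knockout and -0.80 ± 0.34 in wildtype (limma adjusted p = 0.338 and 0.114). Rpl39l, the testis-enriched paralog of Rpl39, had 0.30, 0.28 and 0.27 in wildtype esophagus, against -0.26, -0.20 and -0.20 in marrow, and rose by 0.50 ± 0.13 (limma adjusted p = 0.0206). In knockout it differed by 0.28 ± 0.13 (adjusted p = 0.196). Rpl10l, which takes the place of Rpl10 in male germ cells, rose by 0.30 ± 0.09 in wildtype (limma adjusted p = 0.0481) and differed by 0.03 ± 0.09 in knockout, where the sign turned with median centring (-0.01) and quantile normalisation (-0.02). The Rpl10l call held in 3 of 17 fits that left out 1 array. The median of all genes in the same comparison was 0.14. Rpl39 differed by -0.21 in knockout and by 0.58 in wildtype, where esophageal replicate 2 had 3.13 and the other 2 arrays -0.60 and -0.21. Without that array its tissue difference was -0.60. The largest positive differences, Rps16 at 0.65 ± 0.32 in knockout and Rps15 at 0.60 ± 0.22 in wildtype, were not called (limma adjusted p = 0.242 and 0.0759).

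**Figure D4:**
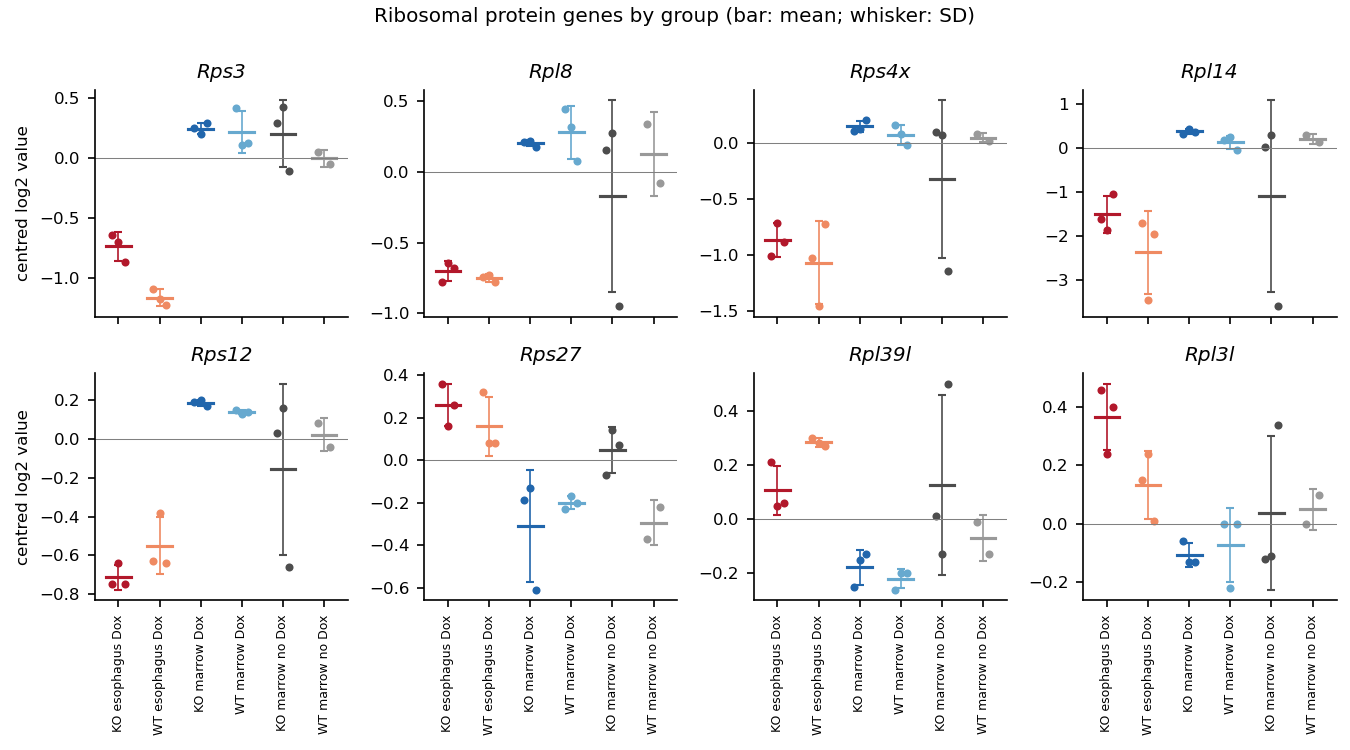
Centred log2 values (vertical axes, each with its own range) of 8 ribosomal protein genes in every array of the 6 groups, with the mean (bar) and SD (whisker) of each group. Rps3, Rpl8, Rps4x, Rpl14 and Rps12 are lower in both esophageal groups than in both marrow groups with Dox, and Rps27, Rpl39l and Rpl3l are higher. The single low or high point in knockout marrow without Dox is the outlying replicate 3, except for Rps27, where replicate 3 (0.07) lies between the others.

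By role, the small subunit had a median difference of -0.47 in knockout and -0.24 in wildtype, and the large subunit -0.36 and -0.41. Of the 3 stalk proteins, which recruit elongation factors, Rplp0 differed by -0.30 ± 0.15 in knockout and 0.07 ± 0.15 in wildtype, Rplp1 by -0.25 ± 0.19 and -0.27 ± 0.19, and Rplp2 by 0.12 ± 0.17 and 0.42 ± 0.17, with no call. The sign for Rplp0 in wildtype was not stable under median centring (-0.03) and quantile normalisation (-0.01). Rpl5 and Rpl11, which with 5S RNA bind Mdm2, differed by -0.03 ± 0.18 and 0.13 ± 0.20 in knockout and by -0.06 ± 0.18 and -0.01 ± 0.20 in wildtype, again with no call. For Rpl11 in wildtype the 95% confidence interval was -0.45 to 0.43, which leaves room for a change as large as the family median. Rpl22, known for its part in T cell development, differed by -0.55 ± 0.43 in knockout and -0.44 ± 0.43 in wildtype, with adjusted p of 0.494 and 0.449, and of 0.00230 and 0.00660 without the outlying array (limma).

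Of the 14 measured Diamond-Blackfan anaemia genes, 2 fell and 1 rose in knockout and 1 fell in wildtype, with medians of -0.33 and -0.21. Over all genes 6.04% fell and 4.50% rose in knockout and 7.06% fell and 8.11% rose in wildtype, and these shares also stand beside the counts of the lists that follow. The 24 measured proteins that bacteria share had medians of -0.19 and -0.15, with 4 lower calls in knockout and 3 in wildtype. The 39 genes outside that set had medians of -0.56 and -0.49. Genes with a run of at least 8 pyrimidines at the start (n = 21) had a median of -0.42 in knockout and -0.44 in wildtype, while the 27 without one had -0.32 and -0.26. The ranges overlapped, from -1.89 to 0.57 and from -1.15 to 0.65 in knockout. The order was the other way for the TOP-like start, where the 11 genes with it had -0.37 in knockout and -0.36 in wildtype, and the 37 without it -0.45 and -0.40.

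Different probe sets of a gene did not always move alike. Fitted one by one, 20 of the 102 probe sets were lower and 3 higher in knockout esophagus, and 13 lower and 2 higher in wildtype esophagus. The share called among all 33793 probe sets was not computed, so these counts have no background. Of the 20, 8 belong to Rps12, and several of those are near-identical. In 6 of 23 genes with several probe sets the signs differed in knockout, and in 8 in wildtype. Rps19 is an example, where a near-identical pair of its 3 probe sets differed by -1.27 ± 0.41 each in knockout and the other by 0.08 ± 0.10. In wildtype that pair differed by -1.22 ± 0.41 each and the other rose by 0.37 ± 0.10 (limma adjusted p = 0.0301). Rpl4 rested on 1 of 2 probe sets, at -0.84 ± 0.10 against -0.07 ± 0.15 in knockout and -0.89 ± 0.10 against 0.14 ± 0.15 in wildtype. Rps24 ranged from -2.05 to -0.39 over 3 probe sets in knockout, and Rpl3 from -2.39 to 0.11 in wildtype. Rps12 differed in 1 direction, with all 8 probe sets called lower in knockout, from -0.99 to -0.73. In wildtype they ran from -1.11 to -0.60 and 2 were called. Counting near-identical ones once leaves 3 of the 8. Ribosomal protein genes have many processed pseudogenes with near-identical sequence, and how far these probes also read such copies was not tested. The 57 probe sets shared with other genes had a median of -0.30 in knockout and -0.18 in wildtype.

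**Figure D5:**
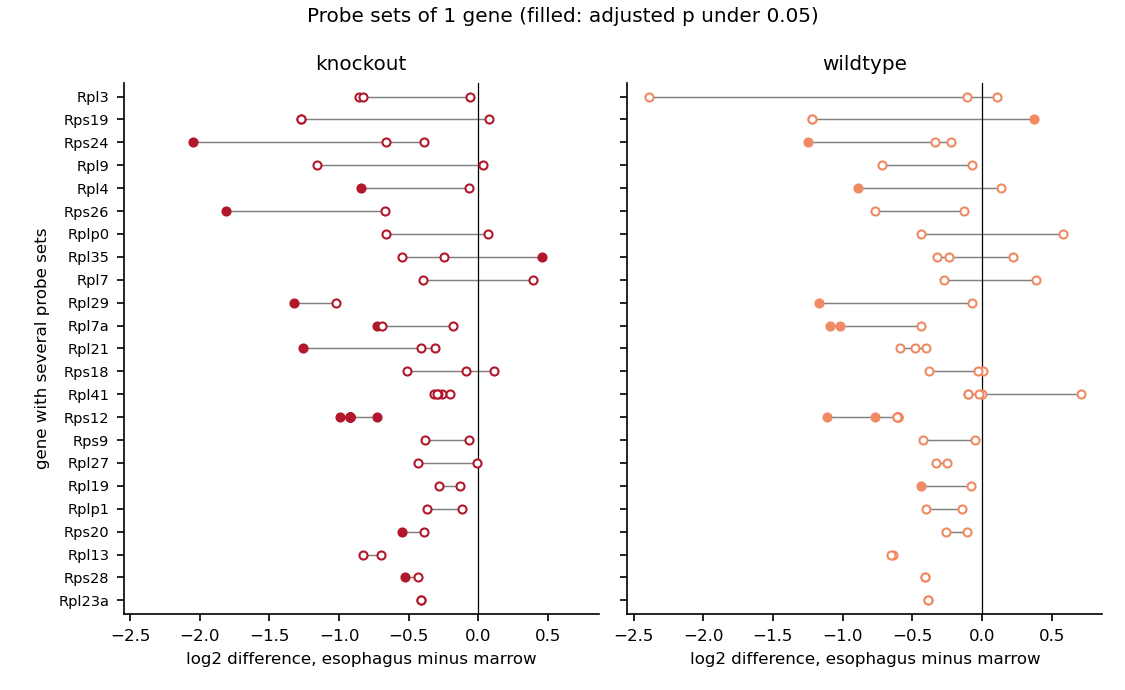
Esophagus minus marrow difference in log2 value (horizontal axis) of every probe set of the 23 ribosomal protein genes with more than 1 probe set (rows), in knockout (left) and wildtype (right) mice with Dox. Filled points passed an adjusted p of 0.05 and grey lines span a gene: Rpl3, Rps19 and Rps24 spread widest, while the 8 probe sets of Rps12 lie between -0.99 and -0.73 in knockout.

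Other parts of the translation machinery were examined beside the ribosomal proteins. Rpsa, a small subunit protein whose symbol has no number, fell by 2.01 ± 0.37 in knockout and 1.86 ± 0.37 in wildtype (limma adjusted p = 0.00334 and 0.00668). Of 11 elongation factors and other TOP mRNAs, 2 fell in knockout and 3 in wildtype, among them Eef1g (-1.19 ± 0.15 and -1.01 ± 0.15) and the nucleolar protein Npm1 (-0.75 ± 0.13 and -0.61 ± 0.13). Of 26 initiation factors, 4 fell in knockout and 7 in wildtype, and none rose, with Eif3l at -2.68 ± 0.59 and -2.69 ± 0.59 and Eif3c at -0.83 ± 0.20 and -1.60 ± 0.20. The largest fall of the list in wildtype was that of Eif3b, at -2.96 ± 0.55. Of 35 ribosome assembly genes, 14 fell in knockout and 16 in wildtype, and none rose. Dkc1, the pseudouridine synthase of rRNA, fell by 2.30 ± 0.22 in knockout and fell by 2.68 ± 0.22 in wildtype. Wdr12, which acts in large subunit assembly, fell by 2.06 ± 0.36 and 1.75 ± 0.36, and Rrn3, which brings RNA polymerase I to rDNA, by 1.76 ± 0.41 and 1.57 ± 0.41. Nop10, a partner of Dkc1, fell by 1.87 ± 0.48 in wildtype. The median of this list was -0.64 in knockout and -0.70 in wildtype.

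Regulators of ribosomal protein genes moved in both directions. Mxd1, which competes with Myc for its partner Max, rose by 2.77 ± 0.20 in knockout and 1.54 ± 0.20 in wildtype. Sesn2, an inhibitor of mTOR complex 1, rose by 0.55 ± 0.13 and 0.46 ± 0.13, and Ddit4, another, rose by 0.61 ± 0.15 in wildtype. Larp1 fell by 1.07 ± 0.31 in knockout and 1.25 ± 0.31 in wildtype, and Larp4 fell by 1.72 ± 0.52 in wildtype. Myc fell by 0.80 ± 0.20 in knockout. Of 18 genes in this list 2 rose and 2 fell in knockout, and 3 rose and 2 fell in wildtype. Among 10 genes of ribosome quality control, 2 fell in knockout and 4 in wildtype.

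Machinery outside cytosolic translation lay on the same side. The 71 measured mitochondrial ribosomal protein genes had a median of -0.56 in knockout and -0.54 in wildtype, with 17 lower and none higher in each genotype. The 38 proteasome genes had medians of -0.66 and -0.73, with 6 lower calls in knockout and 8 in wildtype. Cell type markers moved with the tissue too. The mean over 8 of 9 listed genes of dividing progenitors was -2.26 to -2.0 in knockout and -2.34 to -2.12 in wildtype esophageal arrays, against 0.29 to 0.54 in knockout and 0.14 to 0.37 in wildtype marrow arrays with Dox. Of these 8 genes, 7 were lower in each genotype. The mean of 14 neutrophil and precursor granule genes was -2.22 to -2.04 in knockout and -2.99 to -2.24 in wildtype esophagus, against -0.08 to 0.33 and 0.14 to 0.38 in marrow with Dox, and 10 of the 14 were lower in each genotype. Retnlg, which neutrophils express, rose by 2.75 ± 0.50 in knockout and by 1.98 ± 0.50 in wildtype (limma adjusted p = 0.00296 and 0.0211). Of 9 mast cell and basophil genes, 4 were lower in each genotype. Of the 8 eosinophil genes, Alox15 rose and Epx and Prg2, which encode granule proteins, fell in both genotypes. In knockout Siglecf (1.14 ± 0.16) and Il5ra (2.44 ± 0.50), surface receptors of eosinophils, also rose and the granule gene Ear6 (-1.58 ± 0.47) also fell. Of 10 macrophage or monocyte genes, 1 rose and 5 fell in knockout, and 1 rose and 2 fell in wildtype. Among cells of the esophageal wall, 2 of 6 fibroblast genes rose in knockout and 1 in wildtype, 1 of 9 epithelial genes rose in knockout and 1 fell in wildtype, and 1 of 5 endothelial genes rose in knockout. Centred values cannot show which markers are absent. The part of these cells in the ribosomal protein differences was not tested, and tissue and way of cell release, collagenase or needle, cannot be told apart.

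The comparison of genotypes asks what loss of Pirb changes in eosinophils exposed to interleukin-13. In the esophagus no ribosomal protein gene passed (0 of 63, against 0.347% of all genes), and 2 had an unadjusted p under 0.05, Rps3 and Rpl10l, as did 3251 of all genes. The median difference was -0.03 against -0.10 over all genes, and 0.05 when arrays were centred on their median, so its sign was not stable. Rps3 was higher in all 3 knockout arrays than in all 3 wildtype arrays, by 0.43 ± 0.13 (95% confidence interval 0.16 to 0.71, limma adjusted p = 0.185). Without the outlying marrow array, which is in neither group, its adjusted p was 0.0283, and it was then the only member called, against 3.44% of all genes. Rpl10l differed by -0.21 ± 0.09, Rpl3l by 0.23 ± 0.12 and Rpl6 by 0.39 ± 0.21, with limma adjusted p of 0.333, 0.378 and 0.386. Without replicate 1 of the wildtype esophagus, Rpl37a was lower in knockout by 1.15 ± 0.22 (limma adjusted p = 0.0238). Rpl37a had -0.94, -0.58 and -1.23 in knockout esophagus, against -2.0, 0.45 and 0.02 in wildtype esophagus, and the -2.0 is that array.

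The largest genotype differences in the esophagus were 0.86 for Rpl14 and -0.89 for Rpl39, and both rest on replicate 2 of wildtype esophagus, low for Rpl14 and high for Rpl39. Without that array they were 0.32 and 0.29. Of the genes with defined roles, Rps6 differed by -0.03 ± 0.28, Rps19 by -0.12 ± 0.26, Rplp0 by -0.27 ± 0.15, Rpl5 by -0.06 ± 0.18 and Rpl11 by 0.03 ± 0.20. The 19 measured genes described by role lay between -0.89 (Rpl39) and 0.43 (Rps3). The intervals were -0.63 to 0.58 for Rps6 and -0.69 to 0.45 for Rps19, which do not exclude differences as large as the tissue medians. Arrays of the genotypes were wholly apart for 2 genes with knockout higher and for 6 with knockout lower, against 5.67% and 17.6% of all genes. Mxd1 was higher in knockout esophagus by 1.02 ± 0.20 (limma adjusted p = 0.0477). The tissue difference itself did not pass a test for a genotype effect in any member. The nearest were Rpl6, whose fall was smaller in knockout by 0.71 ± 0.30, and Rps3, by 0.40 ± 0.18, with a limma adjusted p of 0.962 for both, where 0.00451% of all genes passed.

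In marrow with Dox no ribosomal protein gene differed between genotypes at the threshold, as was true of all 22180 genes (0%). None of the 63 had an unadjusted p under 0.05 by limma, against 407 of all 22180 genes. The median difference was 0.04. Arrays were wholly apart for 14 genes with knockout higher and for 2 with knockout lower, against 4.11% and 7.62% of all genes. The 4 genes with the smallest p were Rps14 (-0.18 ± 0.11), Rps9 (0.12 ± 0.08), Rpl6 (-0.32 ± 0.21) and Rpl27a (-0.22 ± 0.17), each with a limma adjusted p of 1.000. Rpl6 had -0.01, 0.19 and 0.19 in knockout, against 0.23, 0.40 and 0.68 in wildtype, so its arrays did not overlap. The largest differences were 0.58 ± 0.47 for Rpl29 and -0.52 ± 0.41 for Rpl17, whose arrays overlapped. The 19 measured genes described by role above lay between -0.11 (Rpl11) and 0.36 (Rps27l).

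In marrow without Dox no member passed either (0% of all genes), and 5 had an unadjusted p under 0.05, as did 1809 of the 22180 genes. They were Rplp0 (0.46 ± 0.16), Rps4l (0.83 ± 0.32), Rps7 (0.74 ± 0.29), Rps27 (0.34 ± 0.13) and Rps23 (0.40 ± 0.18), each with a limma adjusted p of 0.546. The median difference was -0.01 with all arrays and 0.07 when the outlying array, a knockout one, was left out. Arrays were wholly apart for 9 genes with knockout higher and for 2 with knockout lower, against 17.6% and 5.72% of all genes. The largest negative difference, -1.40 ± 0.76 for Rps26, was -0.21 without the outlying array. The 19 measured genes described by role above lay between -0.67 (Rpl22) and 0.46 (Rplp0), and between -0.17 (Rpl3l) and 0.59 (Rplp0) without the outlying array. Rpl22 was 0.08 without it, and 5 of the 19 genes turned sign.

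The comparison of Dox with no Dox in marrow asks what the interleukin-13 switch, or the food itself, does before cells reach the esophagus. No ribosomal protein gene passed in either genotype (0.0225% of all genes passed in each). The median difference was 0.15 in knockout and 0.09 in wildtype, against -0.13 and -0.01 over all genes, with 45 of 63 and 48 of 63 genes above 0. Without the outlying array the knockout median was 0.07, with 42 above 0. The 19 measured genes described by role lay between -0.42 (Rpl11) and 0.65 (Rpl22) in knockout and between -0.27 (Rplp2) and 0.54 (Rplp0) in wildtype. Without the outlying array the knockout range was -0.34 (Rps27) to 0.26 (Rps24), Rpl22 was -0.10, and 4 of the 19 genes turned sign. In wildtype marrow 3 genes had an unadjusted p under 0.05, as did 957 of all 22180 genes. They were Rps23 (0.67 ± 0.18), Rpl17 (1.65 ± 0.46) and the stalk protein Rplp0 (0.54 ± 0.16), with limma adjusted p of 0.514, 0.536 and 0.676. Rpl17 had 1.45, 0.10 and 0.79 in wildtype marrow with Dox, against -0.57 and -1.17 without Dox. The largest negative difference was -0.27 ± 0.19 for Rplp2, and Rpl27a was next by p, at 0.37 ± 0.19. Arrays were wholly apart for 20 genes with Dox higher and 4 with Dox lower, against 12.5% and 12.9% of all genes. With quantile normalisation Rpl17 and Rps23 passed (limma adjusted p = 0.0336 and 0.0272), where 92 of all 22180 genes were higher and 27 lower.

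In knockout marrow 10 genes had an unadjusted p under 0.05 for Dox, as did 6053 of all 22180 genes. Without the outlying array 3 did, against 2213 of all genes. Rps26 differed by 1.91 ± 0.68 with all arrays and by 0.73 ± 0.21 without the outlying one, where its value was -3.67. Rps27 was lower with Dox, by -0.35 ± 0.12 with all arrays and -0.34 ± 0.13 without the outlying one (limma adjusted p = 0.152 and 0.455). Its values were -0.19, -0.13 and -0.61 with Dox, against -0.07, 0.14 and 0.07 without. Rpl9 differed by 1.0 ± 0.37 (0.38 without the outlying array), Rpl32l by -0.17 ± 0.07 and Rps16 by -0.44 ± 0.32, the last with its sign turned (0.10) without that array. Arrays were wholly apart for 14 genes with Dox higher and 4 with Dox lower, against 8.34% and 28.1% of all genes. The effect of Dox did not pass a test for a genotype difference in any member, the nearest being Rps27, Rps16 and Rps23 with a limma adjusted p of 0.663, where 0% of all genes passed.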

How the data were processed

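Eosinophils sorted on CD45, Siglec-F and CCR3 were profiled after RNeasy purification, Nugen Ovation One-Direct amplification and Encore Biotin labelling, per the labels' protocols. The authors deposited log values, taken here as log2 because no source used here states the base. They are centred per probe set: in 97.08% of 33793 probe sets the middle values are equal and opposite (tolerance 2e-05), which puts 0 at the median of 18 arrays. Of these 17 are given, and the authors left out 1 wildtype no-Dox marrow array with weak hybridization, per the series' design text. The submitters' processing notes name Affymetrix Expression Console without its settings. The number of arrays limits the precision.

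Symbols came from the platform annotation through Entrez numbers, and all 102 ribosomal probe sets matched the reference. Probe sets with 1 symbol (23521) were averaged per gene, giving 22180 genes. One linear model with 6 group means over 17 arrays was fitted with limma 3.58.1 in R 4.3.3 (lmFit, eBayes), with 9 two-sided contrasts, Benjamini-Hochberg adjustment over all genes and a threshold of 0.05. A difference is called where it passes that threshold, and ± is a standard error unless SD is stated. The model was tested on simulated data. Sample titles gave the group and replicate number. Arrays with the same number in different groups did not deviate together (r from -0.1 to 0.23 over 40 pairs), so numbers were not taken as pairs.

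The ribosomal genes, the other gene lists and the tests were chosen with earlier results of these data known. The rule for named genes took 24 fixed members in every contrast (19 have a probe set of their own), called members, the 4 with the smallest p where fewer than 4 passed, the largest difference of each sign, and up to 4 called genes of each other list. In marrow the fixed members are given by their range. Rpl28, Rpl13, Rpl32, Rpl15, Rps26 and Rpl37a are also named, chosen after their values were seen. Alternatives were quantile normalisation, median centring, the probe set with the lowest number, array weights, only the groups compared, replicate blocks and leaving out each array. Counting near-identical probe sets once, and fitting marrow without Dox on its own groups without the outlying array, were added after the data were seen.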

Additional observations from a re-analysis of the deposited data

How the results depend on the processing

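Spread and the number of arrays limit these results, and the direction of the family median between tissues did not change in any fit. The tissue counts moved most. In wildtype the 12 called genes became 22 with array weights (3 higher, 19 lower), beside 5792 higher and 2418 lower of all 22180 genes. They became 21 with a replicate block of genotype and number in the 12 arrays with Dox (3 higher, 18 lower). That block called 3389 higher and 2139 lower of all genes. The wildtype count ranged from 2 to 31 when 1 array was left out. The 2 stood beside 536 higher and 799 lower of all genes, and the 31 beside 5569 higher and 2523 lower. In knockout the 11 became 25 with quantile normalisation, 34 with array weights, 30 with only the groups compared and 26 with that replicate block. Of these 24, 30, 26 and 23 were lower. Of all genes, 1734, 2635, 2293 and 1639 were lower in these fits and 1163, 3482, 2158 and 1249 higher. The knockout count ranged from 5 to 29 when 1 array was left out, the 29 beside 2163 higher and 2012 lower of all genes. With the replicate block over all 17 arrays the counts were 12 in wildtype and 13 in knockout. Of all genes, 1992 were then higher and 1646 lower in wildtype, and 1000 higher and 1354 lower in knockout. The genotype count in the esophagus, 0, became 1 with array weights (Rps3), beside 456 higher and 402 lower of all genes. It was 0 to 1 when 1 array was left out. Dox counts, 0 in each genotype, became 2 in wildtype (Rpl17, Rps23) and 1 in knockout (Rps26) with quantile normalisation. Of all genes, 92 were then higher and 27 lower in wildtype, and 137 higher and 104 lower in knockout. With array weights the knockout count became 4 (Rpl4, Rpl6l, Rps13, Rps27), 6.35% of the 63. Beside it 892 of all 22180 genes were higher and 2439 lower. All other counts of members stayed at 0 in every fit. Counting near-identical probe sets once gave the main counts. A filter on dim probe sets was not run, because centred values hold no brightness.

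Some differences changed sign without passing the test on either side, and the ranges here are over fits that each left out 1 array. Between tissues in knockout these were Rpl11 (-0.06 to 0.28), Rpl5 (-0.15 to 0.03, and 0.09 quantile), Rpl10l (-0.02 quantile, -0.01 centred) and Rplp0 (0.07 by the lowest-numbered probe set). In wildtype they were Rpl11 (-0.18 to 0.21, and 0.05 with array weights), Rpl39 (-0.60 to 1.27), Rpl5 (-0.27 to 0.07), Rplp0 (-0.04 to 0.16, -0.01 quantile, -0.03 centred) and Rpl3 (0.11 by probe set). Between genotypes in the esophagus they were Rpl11 (-0.18 to 0.21, -0.07 weights), Rpl3 (-0.01 to 0.57, -0.73 by probe set), Rpl39 (-1.58 to 0.29), Rpl5 (-0.19 to 0.15, 0.02 centred, 0.05 weights), Rplp1 (-0.22 to 0.20, 0.03 centred, 0.00 weights), Rplp2 (-0.18 to 0.09, 0.03 quantile, 0.01 centred), Rps19 (-0.30 to 0.04, 0.02 weights), Rps24 (-0.37 to 0.02), Rps6 (-0.08 to 0.03, 0.06 centred) and Rps4x (-0.10 quantile). In marrow they were Rpl29 between genotypes with Dox (-0.08 by probe set) and Rps16 for Dox in knockout (-0.71 to 0.10, 0.09 weights, 0.10 also with only the groups compared and the outlying array left out). In marrow the genes described by role were set only against fits without the outlying array, where Rpl22 turned to 0.08 between genotypes without Dox and to -0.10 for Dox in knockout. The cause was not tested.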

Other observations

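Rpl32l, whose highest value was 0.22 and whose lowest was -0.11, varied little across the groups. Its log2 differences lay between -0.17 and 0.12 in every comparison, and the -0.17 is the Dox difference in knockout marrow given above. Centred values hold no brightness, so whether this gene was expressed is not known. In the outlying marrow array the high end of the family was held by Rps16 at 1.11, Rps15 at 0.79, Rps4l at 0.78 and Rpl26 at 0.74, and over the 63 genes its values had an r of 0.58 with the mean of the esophageal arrays. Rpl29 had 1.96 in knockout marrow replicate 2 without Dox, the highest value of the family in any marrow array. That value is the mean of 2 unlike probe sets, at 3.46 and 0.46 in this array.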
